A study of Sus scrofa with 48 samples.

Results

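Heat shock proteins and chaperones help other proteins to fold, keep damaged proteins from clumping and hand those that cannot be saved to degradation. The members described here were the genes whose array name starts with HSPA, HSPB, HSPD, HSPE, HSPH, HSP90 or DNAJ, or with CCT and a digit, in capital or small letters, without HSPBAP1 and HSPBP1. They numbered 59 genes with 149 probes, among 12028 gene names on the array. Each gene is given by the brightest of its probes on average. That probe entered the test if it was well above background on every pig of at least 1 of the 4 groups, which 55 members did.

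Perirenal adipose tissue (PRAT), the fat around the kidney, came from 48 castrated male Large White pigs of 132 days, each measured on 1 single-colour porcine array. The pigs belonged to a line selected for low residual feed intake (RFIneg) or to a line selected for high residual feed intake (RFIpl), where residual feed intake is the feed eaten beyond what growth and maintenance predict. Within each line, 12 pigs had free access to a diet rich in fat and fiber (HF) and 12 to a diet low in both and rich in starch (LF), so that the groups HF_RFIneg, HF_RFIpl, LF_RFIneg and LF_RFIpl held 12 pigs each. Each line stands for 1 selected population, and fat, fiber and starch changed together between the diets, so their parts cannot be told apart.

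In the cytosol, HSP70 proteins (HSPA genes) bind unfolded chains, DNAJ proteins bring them their substrates and start their ATP use, HSPH1 and HSPA4 release the spent nucleotide, and HSP90 finishes the folding of kinases and receptors. The CCT ring encloses actin and tubulin while they fold, and HSF1 is the factor that switches on many of these genes under heat or protein damage. Mitochondria have a folding chamber of their own, made of HSPD1 (HSP60) with its lid HSPE1 (HSP10), and the endoplasmic reticulum (ER) has HSPA5 (BiP) and HSP90B1 (GRP94), which respond to the unfolded protein response. Adipocytes use the ER set while they secrete adipokines and handle lipids.

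Signals are log2 values relative to the median of the array, and differences are HF minus LF or RFIneg minus RFIpl on that scale. A call needed a raw p under 0.01, a fold over 1.1 and a Benjamini-Hochberg (BH) adjusted p under 0.08 in limma, over the 40510 probes tested. All 8 adipocyte markers (ADIPOQ, PLIN1, LIPE, CIDEC, FABP4, PPARG, LPL and PNPLA2) were well above background on all 48 arrays. The arrays had 38875 to 47814 probes well above background. Because the tissue was measured whole, fewer cells of a type and less RNA per cell cannot be told apart.

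The HF diet went with lower signals of chaperone genes, and the calls included HSP70, HSP90, DNAJ, HSP60 and CCT genes. Of the 55 tested members, 51 had a lower mean in HF pigs, 23 (41.8%) were called lower and 0 were called higher. Over all tested probes 15.2% were called lower, 9.06% higher and 24.3% in either direction, and over the 9717 named genes, each at its brightest probe, 19.0% were called lower. Of these named genes, 6166 had a lower mean in HF pigs, so most genes leaned the same way under this centring. The median difference was -0.13 over the members and -0.05 over the named genes. No member was higher at an unadjusted p under 0.05 in limma, and the two-way ANOVA also called 0 members higher. The called differences were small, between 1.11-fold and 1.49-fold with a median of 1.21-fold, and the diets overlapped for every called member. For each of them, 17 to 24 HF pigs had a signal under the LF mean.

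**Figure D1:**
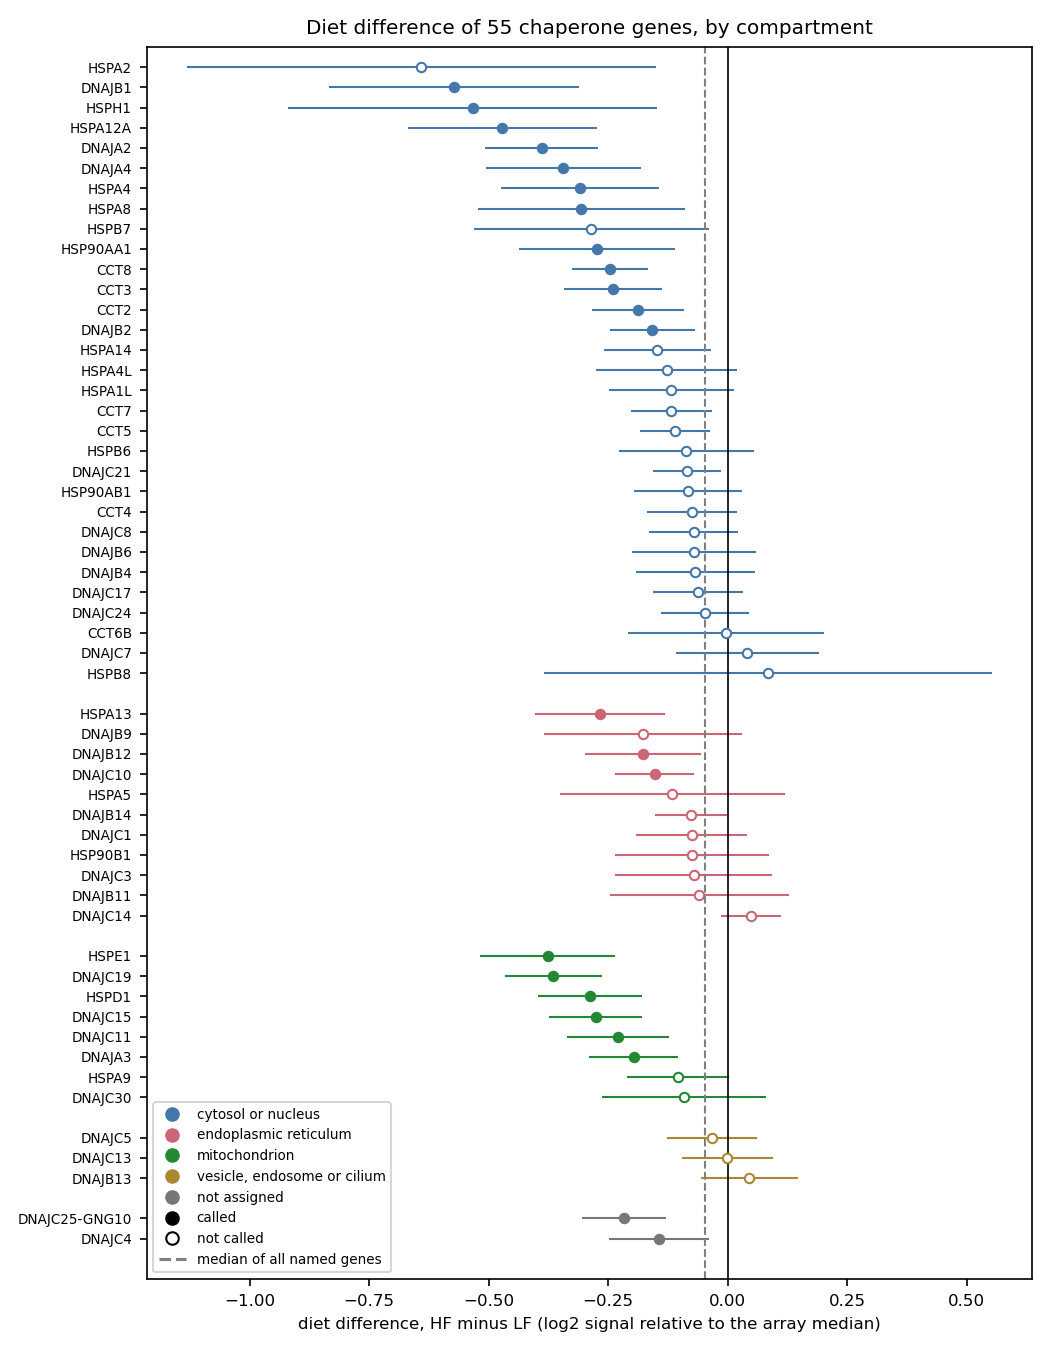
Diet difference of each of the 55 tested members (HF minus LF, log2 signal relative to the array median, 24 pigs a diet), grouped by the compartment of the protein. Filled points were called and open points were not, bars are 95% intervals, and the dashed line is the median of all named genes at -0.05. Among the 8 mitochondrial genes 6 are filled, among the 31 of the cytosol or nucleus 12 and among the 11 of the ER 3.

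All 23 called members were lower in HF pigs in both lines and on both scan days, and 18 were lower on all 6 slides. The calls came from these same arrays, so the shared direction is largely built in and is not separate evidence. The scaling of the arrays set how many were called. With quantile normalization 15 members were called lower, beside 11.4% of all tested probes, and with normexp and quantile normalization 15, beside 10.8%. With centring on the spike-in transcripts, which moved the median of all probes up by 0.11, 7 members were called lower (DNAJA2, DNAJB1, DNAJC15, DNAJC19, HSPA12A, HSPD1 and HSPE1) and 1 higher (DNAJC14), beside 4.13% of all probes called lower and 24.5% higher. Under that centring 32 of the 55 members, and 19 of the 31 of the cytosol or nucleus, had a lower mean in HF pigs, and the median over the members was -0.02. Of all called probes 62.7% were lower with median centring, 48.2% with quantile normalization and 14.4% with spike-in centring, so a fall here is a fall relative to the median probe of the array.

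Macrophage markers moved the other way. All 5 tested macrophage markers (CD163, CD14, CSF1R, MRC1 and AIF1, with CD68 not tested) were higher in HF pigs, 4 of them called, and those 4 are also on lists the study drew from these pigs. The log2 of the summed signal of all 6 macrophage markers, CD68 included, ran from 4.89 to 7.30 in HF pigs (median 6.27) and from 4.86 to 6.90 in LF pigs (median 5.62). The 5 T and NK cell markers were also higher, with NKG7 called. Of the 8 adipocyte markers, 6 had a lower and 2 a higher mean in HF pigs. CIDEC and PPARG were called lower and 0 higher, beside 19.0% of all named genes called lower. By qPCR in the same pigs, the paper found PPARG higher with the HF diet in this tissue, opposite to its array call. The log2 of the summed signal of all 8 adipocyte markers ran from 12.42 to 12.83 in HF pigs (median 12.62) and from 12.48 to 12.91 in LF pigs (median 12.75). Among the markers tested for endothelium (5), fibroblasts (4), skeletal muscle (5), smooth muscle (4), adrenal (2) and erythrocytes (2), 0 were called by limma and 4 had an unadjusted p under 0.05, and of the kidney markers only AQP2 was tested and called, at -0.63. The part of these cell types in the chaperone differences was not tested.

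In the cytosol or nucleus 29 of 31 tested members had a lower mean with the HF diet (19 with spike-in centring), 12 of them called. Over all named genes 6166 of 9717 had a lower mean and 19.0% were called lower. DNAJB1, the HSP40 partner of inducible HSP70, had signals from 5.63 to 7.56 (median 6.37) in HF pigs and from 5.67 to 7.88 (median 7.12) in LF pigs. Both diets overlapped over nearly their whole range, yet 22 of 24 HF pigs were under the average of the LF pigs. The difference was -0.57 (standard error 0.133, limma BH p = 0.00103), a 1.49-fold fall and the largest of the called members, and it was called under each of the 18 alternatives tried. All 5 DNAJB1 probes were lower in HF pigs, from -0.57 to -0.39, and 2 of them were called.

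HSPA8, the constitutive HSP70 of the cytosol, ran from 6.86 to 8.75 (median 7.89) in HF pigs and from 7.31 to 8.73 (median 8.18) in LF pigs. The HF pigs reached as high as the LF pigs but 20 of 24 were under the LF average. Its difference of -0.31 (standard error 0.111, BH p = 0.0314) was called in limma but was not called under 7 of 18 alternatives, with BH p up to 0.215 under spike-in centring.

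HSPH1, the HSP110 that recharges HSP70, spread widely, from 3.32 to 6.34 (median 4.80) in HF pigs and from 3.66 to 6.36 (median 5.31) in LF pigs. Its difference of -0.53 (standard error 0.197, BH p = 0.0352) sat just inside the raw p threshold (p = 0.00945), and it was not called under 9 of 18 alternatives. HSPA4, its close relative, was lower by -0.31 (standard error 0.0841, BH p = 0.00456) and HSPA4L gave -0.13, which was not called.

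HSP90AA1, the inducible cytosolic HSP90, ran from 7.50 to 8.67 (median 7.96) in HF pigs and from 7.71 to 8.77 (median 8.27) in LF pigs, and 22 of 24 HF pigs were under the LF average. The difference was -0.27 (standard error 0.0833, BH p = 0.0109), and 6 of its 8 probes were called lower.

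Of the other cytosolic HSP70 genes, HSPA12A, a distant relative of the HSP70s, ran from -0.28 to 1.70 (median 0.85) in HF pigs and from 0.78 to 1.73 (median 1.23) in LF pigs. Here 11 HF pigs were lower than every LF pig, and the spread was wider in HF pigs (SD 0.45) than in LF pigs (SD 0.21). The difference was -0.47 (standard error 0.101, BH p = 0.000429). HSPA14, a ribosome-bound HSP70, gave -0.15 and HSPA1L -0.12, and neither was called. HSPA2 had the largest difference of the tested members, -0.64 (standard error 0.25, BH p = 0.0463), but missed the raw p threshold (p = 0.0137), and the 95% interval ran from -1.13 to -0.15.

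Among the cytosolic DNAJ genes, DNAJA2, a general HSP70 partner, ran from 2.34 to 3.29 (median 2.89) in HF pigs and from 2.90 to 3.83 (median 3.27) in LF pigs, with 12 HF pigs below every LF pig. Its difference was -0.39 (standard error 0.0604, BH p = 5.9e-06), and both probes were called. DNAJA4, which belongs to the same class, was lower by -0.34 (BH p = 0.00154) with all 3 probes called. DNAJB2, which brings ubiquitinated clients to the proteasome, was lower by -0.16 (BH p = 0.00669). DNAJA2, DNAJB1 and HSPA12A are on lists that the study drew from the same pigs, so their direction is not independent evidence. DNAJB5, also listed there, was well above background on 1 of 48 arrays and was not tested, and HSP90AB2P is not a name in the scanner files.

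**Figure D2:**
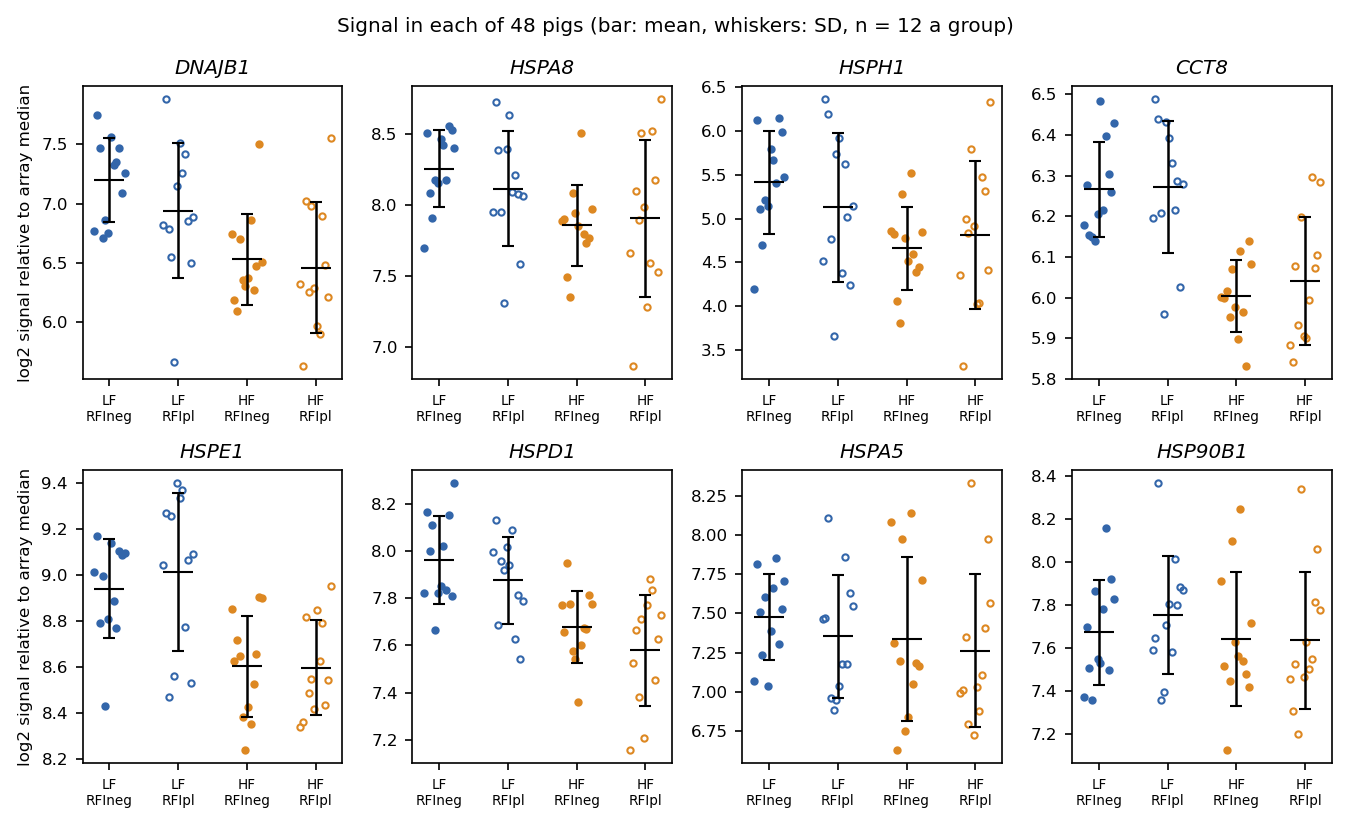
Signal of 8 members in each of the 48 pigs (log2 relative to the array median, y axes differ between panels), with LF pigs in blue, HF pigs in orange, RFIneg filled and RFIpl open. Horizontal marks are means and whiskers the SD (n = 12 a group). In the panels of DNAJB1, CCT8, HSPE1 and HSPD1 both HF groups sit below both LF groups in the mean, while the groups of HSPA5 and HSP90B1 overlap throughout.

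The CCT ring was lower in part. CCT8 ran from 5.83 to 6.30 (median 6.001) in HF pigs and from 5.96 to 6.49 (median 6.27) in LF pigs, with 22 of 24 HF pigs under the LF average. Its difference of -0.25 (standard error 0.0403, BH p = 1.32e-05) was followed by CCT3 at -0.24 (BH p = 0.000476) and CCT2 at -0.19 (BH p = 0.00341), and both probes of CCT8 and CCT3 and all 3 of CCT2 were called. CCT7 at -0.12 (BH p = 0.035) and CCT5 at -0.11 (BH p = 0.0212) had a raw p under 0.01 but stayed under the 1.1-fold threshold. CCT4 gave -0.07 with a 95% interval from -0.17 to 0.02, and CCT6B, a testis form of the ring's subunit 6, gave -0.00. Of the partners of the ring, which include TCP1 (its subunit 1) and the prefoldins that deliver actin and tubulin, 4 of 9 tested were called lower and 0 higher, namely PFDN1 at -0.24, PFDN2 at -0.18, TCP1 at -0.18 and PFDN4 at -0.17. Over all named genes 19.0% were called lower.

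Among the compartments, the mitochondrial set gave the highest share of calls, 6 of 8 genes, with a median difference of -0.25. Over all named genes at their brightest probe 19.0% were called lower, and over all probes 15.2%. HSPE1, the lid of the folding chamber, ran from 8.24 to 8.95 (median 8.59) in HF pigs and from 8.43 to 9.40 (median 9.05) in LF pigs. Each of the 24 HF pigs was under the LF average. The difference was -0.38 (standard error 0.0719, BH p = 0.000108), and all 6 probes of the gene were called lower.

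HSPD1, the chamber itself, ran from 7.16 to 7.95 (median 7.67) in HF pigs and from 7.54 to 8.29 (median 7.93) in LF pigs, and 23 of 24 HF pigs were under the LF average. Its difference was -0.29 (standard error 0.0556, BH p = 0.00012). Of its 21 probes 20 were called lower, and all differences lay between -0.30 and -0.08. HSPD1 and HSPE1 are neighbours in the pig assembly Sscrofa11.1, with no other gene listed between them. After the mean of each group was taken out, their signals correlated with r = 0.69 over the 48 pigs, which share array centring. This was not particular to the pair, since HSPD1 reached r = 0.72 with DNAJC19. The median over the 28 mitochondrial pairs was 0.53.

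Of the 5 DNAJ genes of the mitochondrion 4 were called lower. DNAJC19 and DNAJC15, which help the import motor of the inner membrane, were lower by -0.37 (standard error 0.0517, BH p = 1.37e-06) and -0.28 (standard error 0.0492, BH p = 4.26e-05). DNAJC19 ran from 4.78 to 5.46 (median 5.04) in HF pigs and from 5.10 to 5.81 (median 5.45) in LF pigs, with 14 HF pigs below every LF pig and 7 of its 8 probes called. DNAJC11, which belongs to the cristae complexes, gave -0.23 (BH p = 0.00133) and DNAJA3, the matrix partner of mitochondrial HSP70, -0.20 (BH p = 0.00152). HSPA9, mitochondrial HSP70 itself, gave -0.10 (95% interval -0.21 to 0.00, BH p = 0.14) on a probe whose mean signal was below the array median in both diets, and DNAJC30 gave -0.09. Of the other mitochondrial folding and protease genes, 8 of 12 were tested and all 8 were lower, with TIMM44 (-0.25), HSCB (-0.21), SPG7 (-0.19) and GRPEL2 (-0.15) called. Among all named genes 6166 of 9717 were lower and 19.0% were called lower.

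The central chaperones of the ER were not called between diets. HSPA5, the HSP70 of the ER, ran from 6.63 to 8.33 (median 7.17) in HF pigs and from 6.88 to 8.11 (median 7.47) in LF pigs. The HF pigs enclosed the LF pigs at both ends. The difference was -0.12 (standard error 0.12, BH p = 0.485), with a 95% interval from -0.35 to 0.12 that allows a fall as large as that of HSPA8, and its 3 probes gave -0.12 to -0.10. HSP90B1 ran from 7.12 to 8.34 (median 7.54) in HF pigs and from 7.36 to 8.37 (median 7.70) in LF pigs and gave -0.07 (standard error 0.082, BH p = 0.513), with an interval from -0.23 to 0.09 and 0 of 10 probes called. 1 of these probes reads through the end of the coding sequence and shows why the protein belongs here, since the capitals mark the codons of the KDEL signal, which returns proteins to the ER, before the stop codon. The 12 capital letters were found on either strand of 3 of the 60305 probes (0.00497%).

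HSP90B1 probe A_72_P665834: acatctacagctgaaAAAGATGAACTGtaa

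DNAJB11 and DNAJC3, the DNAJ partners of HSPA5, gave -0.06 (BH p = 0.663) and -0.07 (BH p = 0.541), and DNAJB9, a target of the unfolded protein response, -0.18 (BH p = 0.199). Of the 11 ER members 3 (27.3%) were called lower in limma, beside 19.0% of all named genes. They were HSPA13 at -0.27 (BH p = 0.00293), DNAJB12 at -0.18 (BH p = 0.0251) and DNAJC10 at -0.15 (BH p = 0.00512). HSPA13 is a small HSP70 of the ER membrane, DNAJB12 faces the cytosol from the ER membrane and DNAJC10 is a disulfide reductase. DNAJB12 lost its call under 6 alternatives, and DNAJC10 was well above background on 44 of 48 arrays. The median over the 11 ER members was -0.08, against -0.13 in the cytosol or nucleus and -0.25 in the mitochondrion.

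Of the 21 tested genes of ER folding and quality control outside the family, 4 (19.0%, the same share as over all named genes) were called lower, DERL1 (-0.25), CANX (-0.21), SEC61A1 (-0.17) and P4HB (-0.15), and 1 higher, HERPUD1 (0.31, BH p = 0.0238), which helps to remove misfolded ER proteins. HYOU1 (-0.06) and CALR (-0.02), ER chaperones like HSPA5, were not called and are named after their values were seen. Among the 8 tested sensors and factors of the unfolded protein response, ATF4 (-0.36) and CREB3 (-0.15) were called lower (25%, beside 19.0% of all named genes). XBP1 (0.06), ATF6 (-0.06), ERN1 (-0.03), EIF2AK3 (0.04) and DDIT3 (-0.03), also named after their values were seen, were not.

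**Figure D3:**
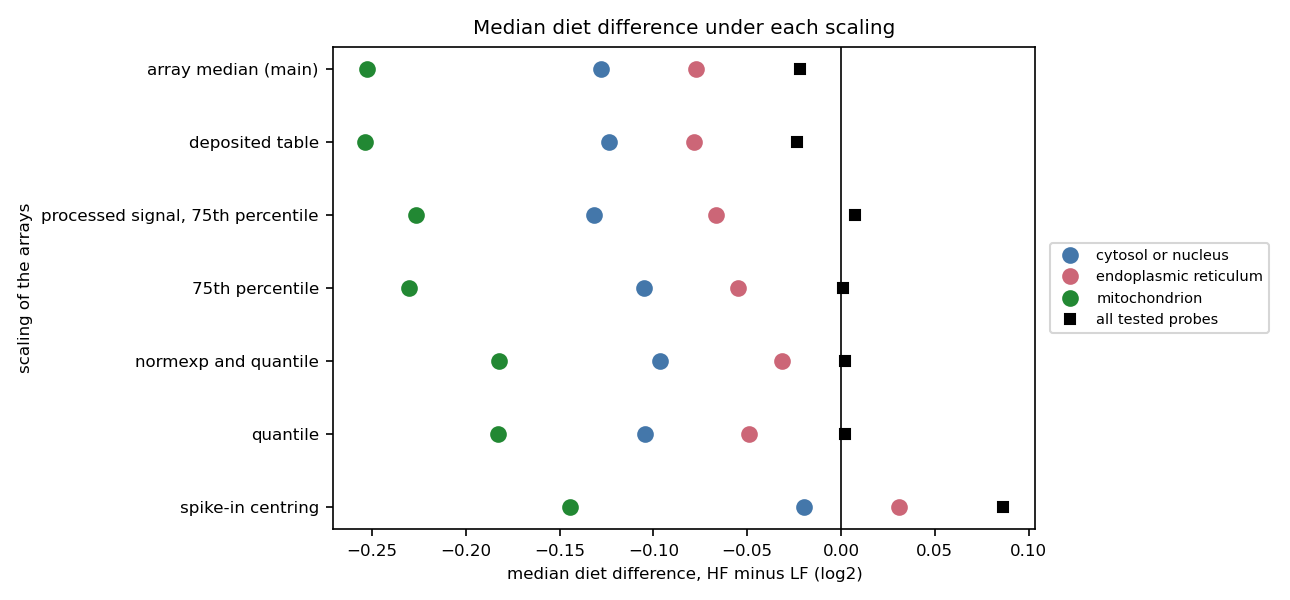
Median diet difference (HF minus LF, log2) over the members of each compartment and over all tested probes (black squares) under 7 scalings of the arrays. The order, with mitochondrion lowest, cytosol or nucleus next and ER the highest of the 3, is the same in every row, while the zero point moves, and with spike-in centring the ER median lies above 0 at 0.03.

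Of the other members, the 3 tested genes of vesicles, endosomes or cilia (DNAJC5, DNAJC13 and DNAJB13) lay between -0.03 and 0.05, and none was called or had an unadjusted p under 0.05 in limma. DNAJC4 (-0.14) and the probe named DNAJC25-GNG10 (-0.22), which could report either gene, were called lower and put in no compartment. DNAJC2, DNAJC5B and DNAJC6 were not tested, since they were well above background on 21, 1 and 6 arrays. Of the small heat shock proteins, HSPB7 gave -0.29, HSPB6 -0.09 and HSPB8 0.08, and none was called, though HSPB7 had an unadjusted p of 0.0278 in limma.

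Other small heat shock proteins stood under names outside the rule. The probes named HSP27 carry the accession of HSPB1, a small heat shock protein that guards actin. HSP27 ran from 6.32 to 7.49 (median 6.84) in HF pigs and from 6.46 to 8.08 (median 7.61) in LF pigs, and 23 of 24 HF pigs were under the LF average. Its difference was -0.60 (standard error 0.124, BH p = 0.000305), with both probes called. CRYAB, alpha B crystallin, another small heat shock protein, gave the largest difference among the members and the folding gene lists, -1.21 (standard error 0.167, BH p = 9.4e-07), a 2.31-fold fall with each of the 24 HF pigs under the LF average. It ran from 4.67 to 6.81 (median 5.66) in HF pigs and from 5.07 to 7.86 (median 7.04) in LF pigs, and all 3 probes were called. CRYAB, like ATF4, DERL1 and PFDN2 above, is on lists that the study drew from the same pigs, so its direction is not independent evidence.

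CRYAB also differed between lines. It was higher in RFIneg pigs by 0.60 (BH p = 0.0331), with signals from 5.40 to 7.73 (median 6.36) against 4.67 to 7.86 (median 5.93) in RFIpl pigs. Of the other genes on the lists of folding partners, named after their values were seen, PDRG1 was called higher in RFIneg pigs (0.26, BH p = 0.022) and YME1L1 lower (-0.17, BH p = 0.00792). HSP70.2, an inducible HSP70 that the assembly lists under the same name, gave a diet difference of -0.38 (BH p = 0.0533) and the probe named HSP70, with the accession of HSPA6, -0.52 (BH p = 0.172), and neither was called.

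HSP90AB1, the constitutive cytosolic HSP90, had 1 probe under that name, which gave -0.08 (BH p = 0.279), with signals from -0.76 to 0.03 over both diets, below or near the array median. The 6 probes named HSPCB carry the HSP90AB1 accession, and the brightest ran from 8.77 to 9.36 (median 9.20) in HF pigs and from 9.10 to 9.61 (median 9.28) in LF pigs. It gave -0.16 (standard error 0.0435, BH p = 0.00536), and 2 of the 6 were called. The stretch of 30 bases below is shared by both designs, but on opposite strands, so the probe named HSP90AB1 is written as the reverse complement of the HSPCB probe. Both cannot pair there with the same labelled strand, so what the probe named HSP90AB1 reports is unclear. Its value may not stand for the gene. All letters are capitals because all pair.

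HSPCB probe A_72_P051491: TCTCCTCTGCTGATGTCTAGTGGTTTTATT
HSP90AB1 probe O14652: AATAAAACCACTAGACATCAGCAGAGGAGA

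With the probes of these older names counted as family genes, 25 of 58 tested members were called lower. Of the co-chaperones that work with cytosolic HSP70 and HSP90, 17 were tested, all 17 had a lower mean with the HF diet and 10 were called, led by CHORDC1 (-0.37), BAG3 (-0.32), AHSA1 (-0.29) and PPID (-0.28). Beside them, 6166 of the 9717 named genes had a lower mean and 19.0% were called lower. HSF1 was lower by -0.17 (BH p = 0.0065), while HSF2 gave -0.00, HSF4 0.10, HSBP1 -0.21 and HSF2BP -0.10, none of which was called.

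Pigs also differed in chaperone signal within each group. With the mean of each group taken out, the correlation over 48 pigs had a median of 0.14 over all 1485 pairs of members, 0.53 over the 28 pairs within the mitochondrion, 0.34 over the 55 pairs within the ER and 0.16 over the 465 pairs in the cytosol or nucleus. Between compartments the median was 0.23 for cytosol or nucleus with mitochondrion, 0.10 for cytosol or nucleus with ER and -0.02 for ER with mitochondrion, so that pairs within the cytosol or nucleus were no closer than its pairs with the mitochondrion. The points of a correlation share their arrays and the centring. HSPA8 and HSPH1 reached r = 0.95, and HSPA5, HSP90B1, DNAJB11 and DNAJC3, chosen after their values were seen, correlated with each other between 0.81 and 0.89. With group means taken out, HSPA5 had an SD of 0.42, more than the size of its diet difference (SD 0.50 over all HF and 0.34 over all LF pigs). The same held for some called members, such as HSPA8 (SD 0.38) and HSPH1 (SD 0.69). It did not hold for others, such as HSPE1 (SD 0.24).

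Outside the family, the 5 genes whose signal followed DNAJB1 most closely were HSP70.2 (r = 0.88), PPID (0.76), AHSA1 (0.75), SERPINH1 (0.73) and CCDC86 (0.72). For HSPA5 they were HYOU1 (r = 0.93), CALR (0.89), INTS6 (0.84), CRELD2 (0.83) and MANF (0.83). Neither list shared a gene with the other, and CALR, HYOU1, CRELD2, MANF and SERPINH1 are proteins of the ER.

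**Figure D4:**
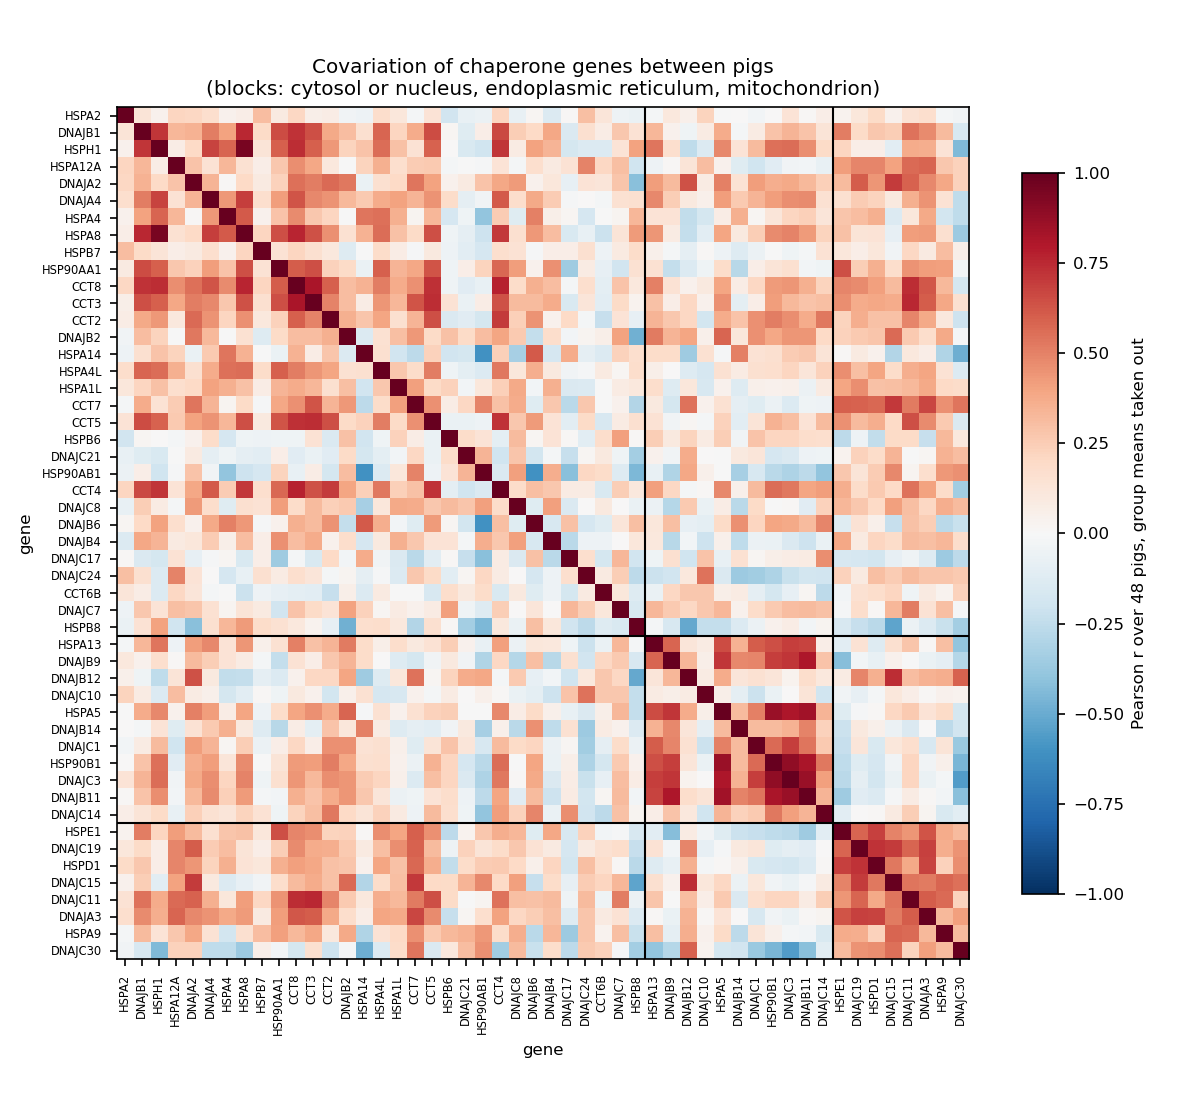
Pearson correlation between the tested members of 3 compartments over 48 pigs, with the mean of each of the 4 groups taken out, from blue (-1) to red (1). Black lines separate cytosol or nucleus, ER and mitochondrion, and genes run from the lowest to the highest diet difference within each. Pairs among HSPA5, HSP90B1, DNAJC3 and DNAJB11 are red, as are pairs among the mitochondrial genes. So are pairs among HSPA8, HSPH1, DNAJB1 and several CCT genes in the cytosol. The order by diet difference places other genes between some of them.

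No member was called between the lines. In limma 0 of 55 members were called by line, where 3.57% of all probes were, and the ANOVA also called 0. At an unadjusted p under 0.05 there were 3 members, against 12.96% of all probes. The lowest BH p of a member was 0.139, for HSPB6. Differences ran from -0.67, for HSPA2, to 0.21, for CCT6B. HSPA2, a testis-enriched HSP70, ran from 1.18 to 4.60 (median 3.47) in RFIneg pigs and from 1.47 to 4.77 (median 3.80) in RFIpl pigs. The RFIneg pigs spread more widely (SD 1.12 against 0.72), and the difference (standard error 0.25, BH p = 0.173) was not called. It was -1.07 among the arrays of the first scan day and -0.27 among those of the second. The dimmer HSPA2 probe gave 0.23 in the other direction (BH p = 0.607).

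Single probes of members not called by line did differ between lines, and they are named here after their values were seen. For HSPE1, probe O8477 ran from 5.74 to 7.51 (median 6.41) in RFIneg pigs and from 5.85 to 8.39 (median 7.17) in RFIpl pigs. Of the 24 RFIneg pigs 20 were under the RFIpl average. The difference was -0.69 (standard error 0.161, BH p = 0.00723), -0.57 within HF and -0.82 within LF pigs, and -0.74 and -0.64 within the scan days. The other 5 HSPE1 probes gave -0.08 to 0.12 for line, with BH p from 0.554 to 0.910. O8477 shares its first 26 bases, in capitals, with the end of probe A_72_P752325, which gave 0.07, except for 1 substitution, G11A, counted from the 5′ end of O8477 with the base of A_72_P752325 first. Of its other 34 bases, no run over 8 letters is found in another HSPE1 probe.

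HSPE1 probe A_72_P752325: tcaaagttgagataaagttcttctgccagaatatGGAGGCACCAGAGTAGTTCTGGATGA
HSPE1 probe O8477: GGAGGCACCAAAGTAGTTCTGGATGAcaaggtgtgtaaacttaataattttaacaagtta

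By diet, O8477 was lower like the others, at -0.51 (BH p = 0.0126). DNAJC7, a partner of both HSP70 and HSP90, had 1 of 2 probes called higher in RFIneg pigs, O8109, at 0.29 (BH p = 0.0409), while the brighter probe gave 0.19 (BH p = 0.214). For diet, the probes of DNAJC21 differed in call. The brighter probe gave -0.08 (BH p = 0.0719) and the dimmer one was called at -0.28 (BH p = 0.000999).

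**Figure D5:**
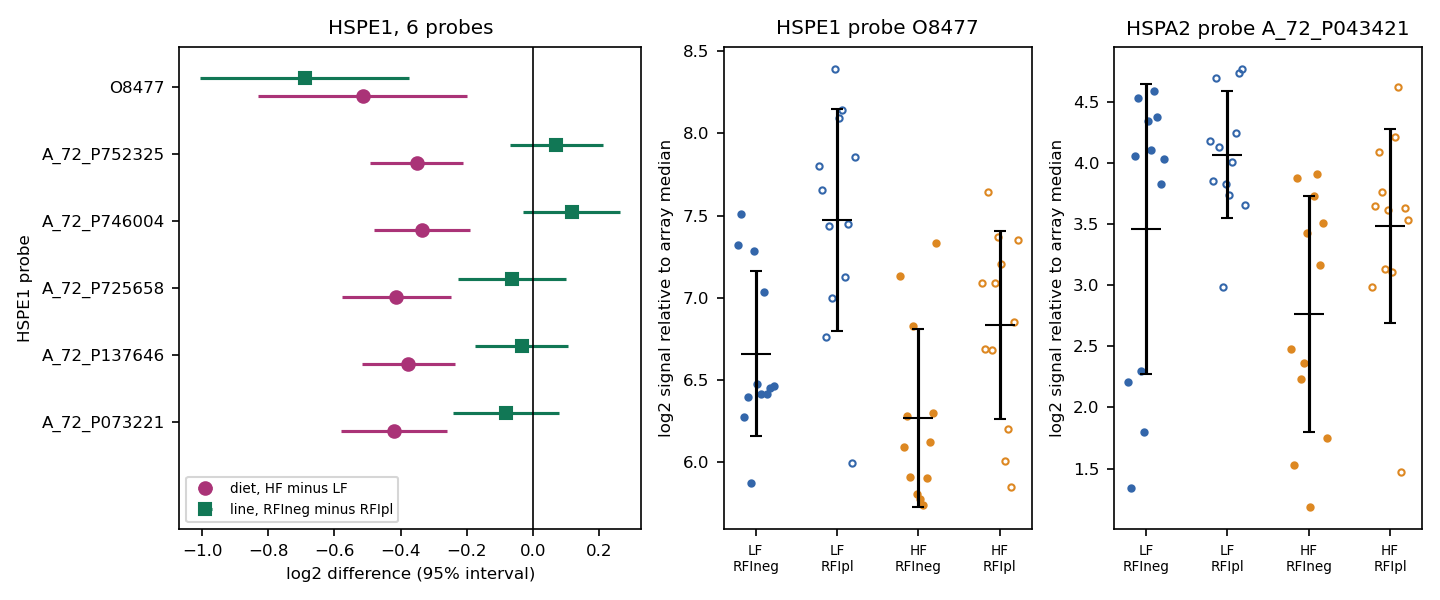
Left, diet and line differences of the 6 HSPE1 probes (log2, 24 pigs a side, bars are 95% intervals), where all diet differences lie between -0.51 and -0.34 and O8477 alone has a line difference away from 0, at -0.69. Middle and right, the signal of O8477 and of the brighter HSPA2 probe in each pig (log2 relative to the array median), with LF in blue, HF in orange, RFIneg filled, RFIpl open, means and SD (n = 12 a group).

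No member was called for the interaction of diet and line. In that test, 0 of 55 members and 0% of all probes were called in limma, 0 members by the ANOVA, and 0 members had an unadjusted interaction p under 0.05, against 2.23% of all probes. The median diet difference was -0.14 in RFIneg and -0.14 in RFIpl pigs, with 51 and 50 of 55 members lower. Over both lines together, 6166 of the 9717 named genes were lower. Within a line, 18 members were called lower in RFIneg pigs, beside 8.52% of all probes, and 11 in RFIpl pigs, beside 10.3%, and this gap was not tested beyond the interaction. DNAJB1 gave -0.67 in RFIneg and -0.48 in RFIpl pigs (interaction p = 0.491), HSPE1 -0.34 and -0.42 (p = 0.593), and HSPD1 -0.28 and -0.30 (p = 0.891).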

How the data were processed

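Each pig's array was labelled with Cy3 and scanned, and the authors deposited the scanner intensity of each spot (median, background and processed signal) with spot flags, not normalized between arrays. Per the labels, the authors used R 2.10.0. Their deposited log2 table, centred on array medians, served as an alternative. Its 38142 entries were matched to spots by value, because only 2 entry names fitted their spot. Here log2 of the median signal minus the array median over non-control probes was analysed. Spots flagged as not uniform (0 to 23 an array) were left out. Median background was 23 to 33 and the median signal 115 to 178, with no saturated spot. Precision is limited by how many arrays there are. No genome sequence was used, and the RefSeq gene table of Sscrofa11.1 gave gene names and neighbours.

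Diet, line and their interaction were fitted over all 48 pigs with limma 3.58.1 (lmFit and eBayes) in R 4.3.3, with BH adjustment over 40510 probes, and the fit was tested on simulated data. Compartment medians and correlations are descriptions. Members and lists were chosen with earlier results of these data known. Named genes followed a rule: HSP90, HSP70, HSPD1, HSPE1 and CCT genes, the 10 largest called falls and rises, members called by line or interaction, members the study lists, members with probes called in both directions, up to 4 called genes of each partner list, and the 5 genes most like DNAJB1 and HSPA5. Alternatives covered scaling, filters, blocks, the two-way ANOVA, the BH threshold and probe averaging and, chosen after seeing the data, capital names only and older symbols.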

Additional observations from a re-analysis of the deposited data

How the results depend on the processing

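In the main setting 23 members were called lower in HF pigs, beside 15.2% of all probes. The count was 15 with quantile normalization (beside 11.4%) and 15 with normexp and quantile normalization (beside 10.8%). With spike-in centring it was 7 (beside 4.13%). That centring also called 1 member higher (beside 24.5%) and turned the median of the ER members to 0.0308. Under the other alternatives the count lay between 17 and 27. It was 17 with the 75th percentile, beside 12.1% of all probes, and 27 with BH p under 0.05 as the threshold, beside 18.8%. It was 25 with older symbols and 22 with capital names only, both beside 15.2% and both chosen after seeing the data. The cytosolic, mitochondrial and CCT medians stayed below 0 under every alternative run for them. With spike-in centring, however, the CCT and cytosolic medians were near 0, at -0.0093 (CCT7) and -0.0196 (HSPA4L). No alternative called a member by line or interaction. Signs turned for some members named with a difference. CCT6B turned with the processed signal (0.109), quantile normalization (0.0215), the 75th percentile (0.0194) and spike-in centring (0.105). DNAJC13 turned with the processed signal (0.0231), normexp and quantile normalization (0.0029), quantile normalization (0.00055), the 75th percentile (0.0217) and spike-in centring (0.107). CCT4 turned with normexp and quantile normalization (0.00053) and spike-in centring (0.0336). HSP90B1 turned with normexp and quantile normalization (0.0102), quantile normalization (0.0099) and spike-in centring (0.0340). With spike-in centring, HSPA9 (0.0045), HSP90AB1 (0.0251), DNAJB11 (0.0490), DNAJC3 (0.0370), DNAJC21 (0.0235), HSPB6 (0.0219), DNAJC30 (0.0168) and DNAJC5 (0.0751) turned. Members without a named difference turned there too, namely DNAJB14 (0.031), DNAJB4 (0.041), DNAJB6 (0.038), DNAJC1 (0.033), DNAJC17 (0.046), DNAJC24 (0.061) and DNAJC8 (0.037). None of these members was called in the main setting. The cause was not tested. Among the values of the members named with a difference, 839 kept direction and call under an alternative, 50 lost the call, 14 gained it and 22 turned.

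Groups share replicate numbers, but no source says that a number pairs pigs: of 72 same-number pairs 39 correlated over 0.1, and 16 of 48 arrays correlated best with one of their own number. With replicate number as a block, 23 members were called lower in HF pigs (beside 16.6% of all probes), 0 higher, 0 by line and 0 by interaction.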
